A study of Mus musculus with 24 samples.

Results

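The MG132 response of immortalized fibroblasts was measured as the 3 libraries of MG132-treated cells against the 3 libraries of DMSO-treated cells of the same cell-state, 6 of the 24 libraries of the series. The fibroblasts came from the tails of male C57/Bl6 mice aged 4 weeks, and the SV40 T antigen was introduced by retrovirus into cells of low passage. Immortalized cells received 10 µM MG132 for 8 h, and their controls received 0.1% DMSO, which was also the vehicle. The other 18 libraries were proliferating, senescent and quiescent fibroblasts of the same originating pool, without the antigen, with the same 2 treatments and 3 libraries for each of the 8 groups. They enter here only to show where the immortalized response differed. All cell-states thus descend from 1 pool of cells, and the sources used here do not say how many transductions gave the immortalized population. The methods of the study state as a general rule that each experiment was done again on other days, but the labels do not say whether these replicates were separate cultures or separate RNA of 1 culture. The p-values then measure the spread between libraries, which may be technical.

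MG132 is a peptide aldehyde that inhibits the proteasome, the barrel-shaped protease that degrades ubiquitin-tagged proteins. When it is blocked, misfolded proteins accumulate, heat shock factor 1 is released from chaperones and switches on chaperone genes, and the transcription factor Nrf1 raises proteasome subunit genes. Fibroblasts can also gather ubiquitinated proteins beside the nucleus in a body called the aggresome, which can be cleared by autophagy. The SV40 large T antigen binds p53 and the RB family proteins, which removes the usual brakes on the cell cycle. It leaves p53 protein stable but largely unable to switch on its target genes.

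The values were TPM, the abundance of each transcript per unit of its length, scaled to the same total in every library, so the depth behind them is unknown. Between 16751 and 17640 genes were above 0 TPM in each of the 6 libraries. Each library was divided by a size factor, the median ratio of its genes to the geometric mean over libraries, and 13489 of 19880 genes were tested on the scale log2(scaled TPM + 1). A gene that rose or fell below therefore did so relative to the typical gene. The deposited values are titled as TPM normalized to ERCC, a spike-in RNA added per cell number. Scaling to a fixed total and size factors both remove a library-wide difference in RNA, so none is read here. Changes are given as log2 fold changes ± standard error of the fit, and a gene was called at an adjusted p under 0.05. Fold changes on this scale understate the change of genes at low TPM. Levels with ± are the mean and SD of 3 libraries, and counts of a gene group are over its members that passed a filter of 1 TPM in 3 libraries.

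The counts depended on the scale of the values. The 10 most abundant genes took 8.21 to 8.73% of all TPM in the DMSO libraries and 12.3 to 15.9% in the MG132 libraries. With size factors, 3592 genes rose (26.6%) and 3593 fell (26.6%), 53.3% in all, and the median change was 0.01. With TPM as deposited, the median gene fell by 0.57 on the log2 scale, 1031 genes rose (7.64%) and 7626 fell (56.5%). Undoing the step that scaled each library to a fixed total, which gave a median of -0.51, left 1147 risen and 7058 fallen. Risen genes made up 50% of all calls with size factors, 11.9% with TPM as deposited and 14% with the step undone. All 3593 falls and 1029 of the rises (7.63%) were called under all 3 scalings. Both alternatives lower the median change, so a fall called with size factors could hardly lose its call. This agreement therefore says little about the falls. The count of rises that holds under all 3 scalings is given beside most groups of genes below. Counts of a group are to be read against the 26.6% of all genes that rose and the 26.6% that fell.

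**Figure D1:**
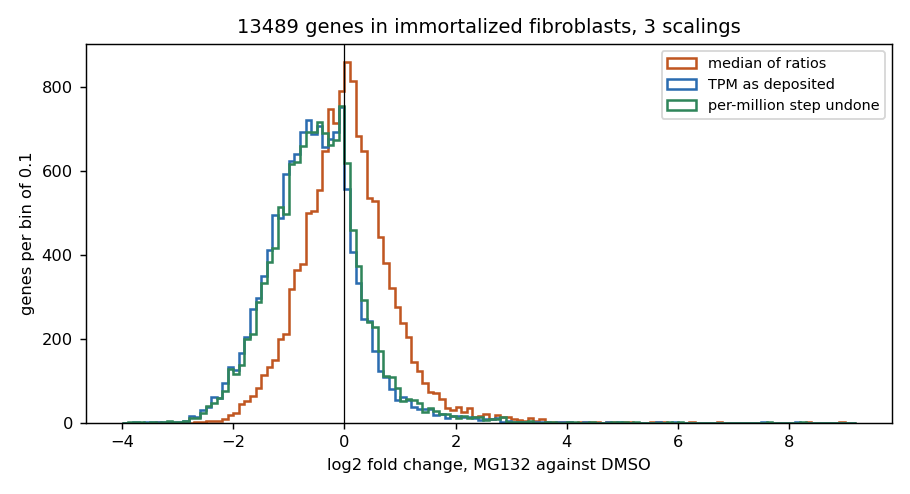
Histogram of the log2 fold change of MG132 against DMSO (x axis) for 13489 genes in bins of 0.1 (y axis, genes per bin), with 1 line per scaling. The curve for size factors has its median at 0.01, and the curves for TPM as deposited and with that fixed total undone have theirs at -0.57 and -0.51.

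The libraries separated by treatment. Each library was nearest to another of its own group, with Spearman correlations of 0.976 to 0.9925, and no correlation with the other treatment exceeded 0.9437. The 3 MG132 libraries lay wholly above the 3 DMSO libraries in TPM as deposited for 8.67% of genes tested and wholly below for 57.2%. Replicate 2 stood apart within both groups, as shown by the shares of gene groups in each library. Mitosis genes took 0.280, 0.807 and 0.229% of TPM in DMSO replicates 1, 2 and 3. Heat shock factor targets took 14.2, 7.55 and 13.5% in the MG132 replicates, against 1.22, 1.16 and 1.70% in the DMSO replicates. Counts for the main groups are therefore also given without replicate 2 of both treatments, a setting chosen after the data were seen. Without it, 3272 genes rose and 3125 fell.

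**Figure D2:**
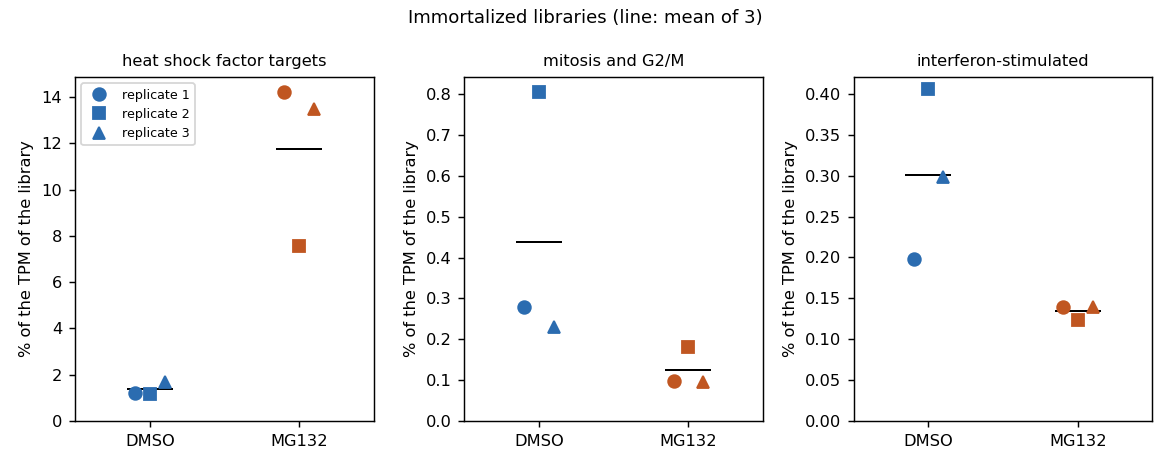
Share of the TPM of each immortalized library (y axis, %) taken by 3 groups of genes under DMSO and MG132 (x axis), with 1 symbol per replicate and a line at the mean of 3. Heat shock factor targets lay between 7.55 and 14.2% in the MG132 libraries, and DMSO replicate 2 held the largest share of mitosis genes, 0.807%.

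Fibroblast markers were abundant in all 6 libraries, with 11 of 13 at a mean of 1 TPM or more and sums of 20504 to 23619 TPM under DMSO and 16036 to 19227 TPM under MG132. Dcn and Lum, which encode the matrix proteoglycans decorin and lumican, were the exceptions, with means of 0.806 ± 0.589 and 0.0747 TPM under DMSO. Markers of 4 other cell types had larger sums after MG132, each at a low level. The summed level of 7 endothelial markers ran from 0.387 to 0.775 TPM under DMSO and from 5.32 to 8.28 TPM under MG132. The sum of 5 immune markers ran from 9.48 to 19.6 TPM and from 20.8 to 23.4 TPM, nearly all of it Csf1r and Cd68. That of 5 keratinocyte markers ran from 2.84 to 4.66 TPM and from 6.56 to 9.71 TPM, with Trp63 at 0 in all 6 libraries. Most of it under MG132 was Epcam (mean 5.07 TPM). That of 3 adipocyte markers ran from 1.02 to 4.18 TPM and from 4.22 to 6.61 TPM, nearly all of it Fabp4. The part of these genes in the results was not tested. In RNA from many cells, fewer cells of a type and less RNA per cell cannot be told apart.

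Chaperone genes made up most of the largest rises. The promoters of 3 of them are printed because they hold the heat shock element, the site that heat shock factor binds. Each window of 300 bases runs from 250 bases before to 50 bases after a transcription start, is taken from RefSeq on GRCm38.p6 and reads 5′ to 3′ on the strand of the gene. Capitals mark matches to GAANNTTC or TTCNNGAA, each of which reads the same on both strands. Neighbouring matches can overlap and then share bases. Hspa1a encodes the inducible HSP70, and its window is chr17:34972107-34972406 on the minus strand. Hspb1 encodes the small heat shock protein HSP27, and its window is chr5:135887669-135887968 on the plus strand. Hsph1 encodes HSP110, which exchanges the nucleotide of HSP70, and its window is chr5:149636287-149636586 on the minus strand.
Hspa1a: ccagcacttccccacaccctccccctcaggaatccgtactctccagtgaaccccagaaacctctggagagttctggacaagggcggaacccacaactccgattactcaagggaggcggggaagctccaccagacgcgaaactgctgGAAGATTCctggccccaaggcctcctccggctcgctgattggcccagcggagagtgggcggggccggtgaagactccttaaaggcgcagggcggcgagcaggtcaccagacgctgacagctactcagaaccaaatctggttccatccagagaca
Hspb1: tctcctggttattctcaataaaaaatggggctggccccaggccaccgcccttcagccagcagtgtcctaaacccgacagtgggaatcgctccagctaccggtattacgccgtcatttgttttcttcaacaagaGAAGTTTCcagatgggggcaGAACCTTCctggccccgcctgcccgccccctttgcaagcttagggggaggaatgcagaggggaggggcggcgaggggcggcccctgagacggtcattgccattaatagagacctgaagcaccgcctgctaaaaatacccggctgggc
Hsph1: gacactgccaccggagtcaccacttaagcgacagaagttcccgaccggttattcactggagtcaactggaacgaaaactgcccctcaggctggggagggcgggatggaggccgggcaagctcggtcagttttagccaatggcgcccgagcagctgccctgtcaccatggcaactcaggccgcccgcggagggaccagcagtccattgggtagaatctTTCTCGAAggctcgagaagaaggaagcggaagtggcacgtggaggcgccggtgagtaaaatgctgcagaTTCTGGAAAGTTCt

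The windows held 1, 2 and 3 matches. A match was found in 13 of the 19 heat shock factor targets with a window (68.4%) and in 1461 of 10435 tested genes with one (14.0%). Among all risen genes with a window the share was 14.4%. The targets were listed for being known targets, some of them through such sites, and a match is a description of the letters.

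All 24 heat shock factor targets rose, 22 of them under all 3 scalings, with a median change of 3.38 against 0.01 over all genes tested. All 24 also rose without replicate 2 of both treatments. Hspa1a (chr17:34969190-34972156 on GRCm38) had 24.4, 17.4 and 78.8 TPM in the DMSO libraries and 15947, 4521 and 12846 TPM in the MG132 libraries, a change of 8.96 ± 0.81 (adjusted p = 1.9e-08). Its near-identical copy Hspa1b changed by 8.31 ± 0.78, and how reads were divided between the pair is uncertain. The lowest MG132 library of Hspa1a, replicate 2, was still far above every DMSO library. Hspb1 had 328, 189 and 530.4 TPM under DMSO and 22842, 12953 and 26643 TPM under MG132 (change 6.73 ± 0.51, adjusted p = 1.8e-09). The libraries of Hspb1 did not overlap, and replicate 2 was the lowest of each treatment. Cryab encodes alpha-B crystallin, a small heat shock protein that holds unfolding proteins in solution, and it went from 139.9, 40.6 and 218 TPM to 3341, 1792 and 3988 TPM (5.50 ± 0.61). Its MG132 libraries were all above its DMSO libraries.

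Genes for partners of HSP70 were among the largest rises too. Hsph1 had 113, 107 and 213 TPM under DMSO and 4023, 1779 and 3159.9 TPM under MG132 (5.13 ± 0.43). Dnajb1 encodes an HSP40 that hands clients to HSP70, and it changed by 5.08 ± 0.37, from 46.5, 30.3 and 71.3 TPM to 1109.7, 658 and 1132 TPM. Dnaja4, another HSP40, changed by 4.84 ± 0.37. Bag3, the co-chaperone that passes HSP70 clients to autophagy, changed by 3.54 ± 0.38, while Bag4 and Bag5 fell by 0.72 each on the log2 scale. Of 11 cytosolic HSP70 and HSP110 genes 8 rose (7 under all 3 scalings) and 3 fell. The falls were Hspa12a, Hspa12b and Hspa14, at -0.53, -0.49 and -0.36. Of 31 HSP40 genes 12 rose (6 under all 3 scalings) and 8 fell, the falls being the mitochondrial Dnaja3 and 7 of the Dnajc class, led by Dnajc30 at -0.94. The share of HSP40 falls, 25.8%, was near the 26.6% of all genes tested.

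HSP90 genes rose for the most part, and mitochondrial chaperones and proteases were called in both directions. Hsp90aa1, the inducible HSP90, went from 869, 1085 and 1277 TPM to 7509, 5338 and 7031 TPM (3.40 ± 0.24), and Hsp90ab1, its constitutive partner, changed by 1.95 ± 0.17. Of 17 HSP90 and co-chaperone genes 10 rose, 7 of them under all 3 scalings, and 2 fell, Cdc37l1 and Aarsd1. Hspe1 and Hspd1, the lid and barrel of the mitochondrial chaperonin, changed by 2.75 ± 0.34 and 2.46 ± 0.18. Of 15 mitochondrial chaperone and protease genes 7 rose, 2 of them under all 3 scalings, and 4 fell (26.7%, near the 26.6% of all genes tested). Among the falls were the protease subunits Clpp, from 97.7, 57.9 and 101 TPM under DMSO to 20.3, 27.9 and 25.7 TPM under MG132, and Afg3l2, from 50.8 ± 7.96 TPM (mean ± SD, n = 3) to 14.3 ± 2.15 TPM. Of the cytosolic chaperonin CCT, 7 of 8 subunits were called as risen relative to the typical gene, but only Cct2 under all 3 scalings, with 774 ± 99.3 TPM under DMSO and 1107 ± 46.4 TPM under MG132. Cct4 is an example, with 251 ± 11.1 TPM under DMSO and 209 ± 6.94 TPM under MG132 beside a called change of 0.51 that turns to -0.26 with TPM as deposited.

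**Figure D3:**
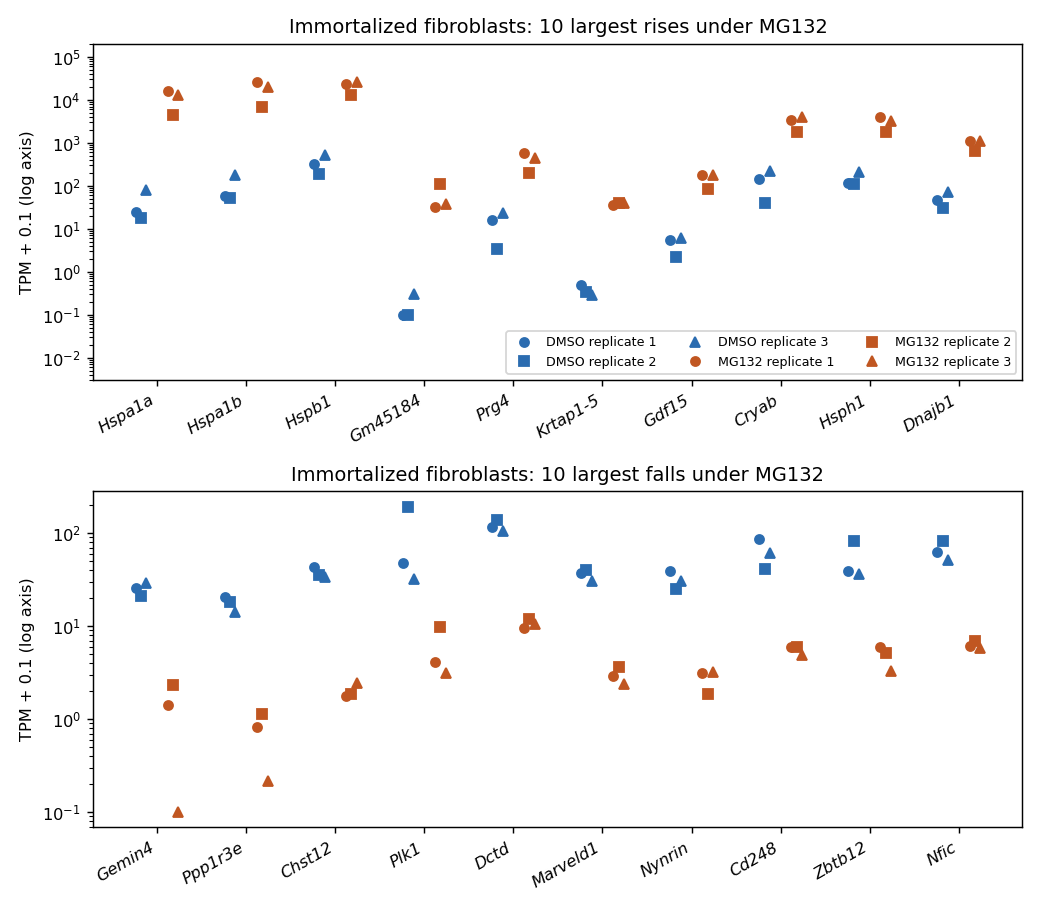
TPM + 0.1 of each immortalized library (y axis, log scale) for the 10 largest rises and the 10 largest falls (x axis), with blue for DMSO, orange for MG132 and 1 symbol per replicate. The 3 MG132 libraries do not overlap the 3 DMSO libraries for any of the 20 genes, which the choice of these genes required.

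Most genes of the proteasome itself rose relative to the typical gene. Of 14 subunits of the 20S core 12 rose, 5 of them under all 3 scalings, with a median of 0.97. Of 19 subunits of the 19S regulator, the cap that unfolds substrates, 18 rose, 9 of them under all 3 scalings, with a median of 1.15. These counts were 11 and 18 without replicate 2 of both treatments. Psmd4, the ubiquitin receptor of the cap, had 233, 188 and 269 TPM under DMSO and 434, 397 and 457 TPM under MG132 (1.68 ± 0.16, adjusted p = 5.7e-08). Psmb7, one of the catalytic subunits, went from 269.7, 238 and 289 TPM to 403, 447 and 474 TPM (1.51 ± 0.16). Neither gene had overlapping libraries.

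Genes that build or replace the proteasome did not follow it. Of 13 assembly factors and alternative caps, 4 were called as risen, though not under all 3 scalings, and 3 fell. These shares, 30.8 and 23.1%, were near the 26.6% of all genes tested in each direction. Psmd5, a chaperone for the base of the 19S regulator, went from 32.7, 28.5 and 34.8 TPM to 6.34, 5.98 and 6.33 TPM (-1.49 ± 0.09). Psmg1, a chaperone for the 20S ring, changed by -1.28 ± 0.22. Pomp, the maturation factor of the core, was called at 0.75, but its sign turned with TPM as deposited (-0.01). Of 10 genes of the interferon-inducible immunoproteasome and its partners, 3 were called as risen, though not under all 3 scalings, and 4 fell. Tap1 and Tap2, the peptide transporter of antigen presentation, fell by 0.60 and 0.72 on the log2 scale. Only 2 of the 10 were called as fallen without replicate 2 of both treatments.

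Ubiquitin genes and their shuttles rose in part. Ubb, which encodes a chain of ubiquitin units, had 1478, 1067 and 2019 TPM under DMSO and 11283, 7579.6 and 12212 TPM under MG132 (3.56 ± 0.35), with no overlap. Rps27a, which fuses ubiquitin to a ribosomal protein, changed by 0.92. Of 23 ubiquitin and shuttle genes 15 rose, 9 of them under all 3 scalings, and 3 fell. Zfand2a, an arsenite- and heat-inducible protein that associates with the proteasome, had 32.7, 25.8 and 63.0 TPM under DMSO and 695, 286 and 570.4 TPM under MG132 (4.42 ± 0.50). All 3 of its MG132 libraries were far above the DMSO libraries. Ubqln4 and Ngly1, a ubiquilin shuttle and the cytosolic N-glycanase that activates Nrf1, fell by 0.89 and 0.76 on the log2 scale.

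Among genes of the aggresome, the receptor rose, and the group with the transport machinery was called about as often as all genes tested. Sqstm1 encodes p62, the adaptor that joins ubiquitinated proteins to the autophagy membrane, and it went from 662, 545 and 918 TPM to 3960.2, 2749 and 3871 TPM (3.10 ± 0.27, adjusted p = 1.3e-08). Its libraries did not overlap. Vim, which encodes the intermediate filament vimentin, was among the most abundant transcripts, with 15473, 13666 and 12711 TPM under DMSO and 11070.5, 13779 and 10915 TPM under MG132. It was called as risen at 0.54 ± 0.19, but turned negative on either alternative scale (-0.23 as deposited, -0.14 with the step undone). Hdac6, the deacetylase that links ubiquitinated cargo to dynein, fell from 11.6, 10.2 and 11.2 TPM to 4.94, 4.81 and 4.11 TPM (-0.43 ± 0.11). Of 36 aggresome and transport genes, 8 rose (3 under all 3 scalings) and 10 fell, including 4 tubulin genes, Tuba1b, Tubb5, Tubb4b and Tubg1. These shares, 22.2 and 27.8%, lay near the 26.6% of all genes tested in each direction.

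The TAK1, MKK3/6 and p38 kinases, which the study places upstream of the aggresome, did not move together. The p38 genes Mapk14, Mapk11 and Mapk12 fell by 0.90, 1.14 and 1.13 on the log2 scale. Mapk14, the most abundant of these, had 42.6, 44.1 and 46.3 TPM under DMSO and 14.4, 14.3 and 12.2 TPM under MG132. Map2k3, which encodes MKK3, rose by 1.06, from 108, 119.8 and 119 TPM to 148, 138 and 137 TPM. Map3k7, which encodes TAK1, and Mapk13 were called as risen at 0.27 and 0.53, and both turned negative on either alternative scale, at -0.48 and -0.20 with TPM as deposited and at -0.39 and -0.11 with the step undone. Map2k6, which encodes MKK6, changed by 0.10 ± 0.19 and was not called, with -0.38 for TPM as deposited and -0.35 with the step undone.

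Autophagy and lysosome genes rose mainly on the relative scale. Of 36 autophagy genes 17 rose, 5 of them under all 3 scalings, and 9 fell. Atg14, a subunit of the lipid kinase that starts the membrane, went from 5.38 ± 1.17 TPM to 14.8 ± 4.27 TPM (2.0 ± 0.24), and Atg12, which is joined to Atg5, changed by 1.90 ± 0.18. Wipi1 and Rubcn fell by 1.17 and 0.98 on the log2 scale. Of 39 lysosomal genes 29 rose, but only 5 under all 3 scalings, and 3 fell. Ctsd, the protease cathepsin D, had 574, 322 and 570.0 TPM under DMSO and 813, 700.1 and 804 TPM under MG132 (1.48 ± 0.19). Of 14 autophagy receptor genes 4 rose and 3 fell (28.6 and 21.4%, near the 26.6% of all genes tested). Of the rises only Sqstm1 was called under all 3 scalings. Bnip3, a receptor that marks mitochondria and a hypoxia-inducible gene, fell from 46.8, 38.9 and 65.4 TPM to 5.38, 5.98 and 7.49 TPM (-2.09 ± 0.29).

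**Figure D4:**
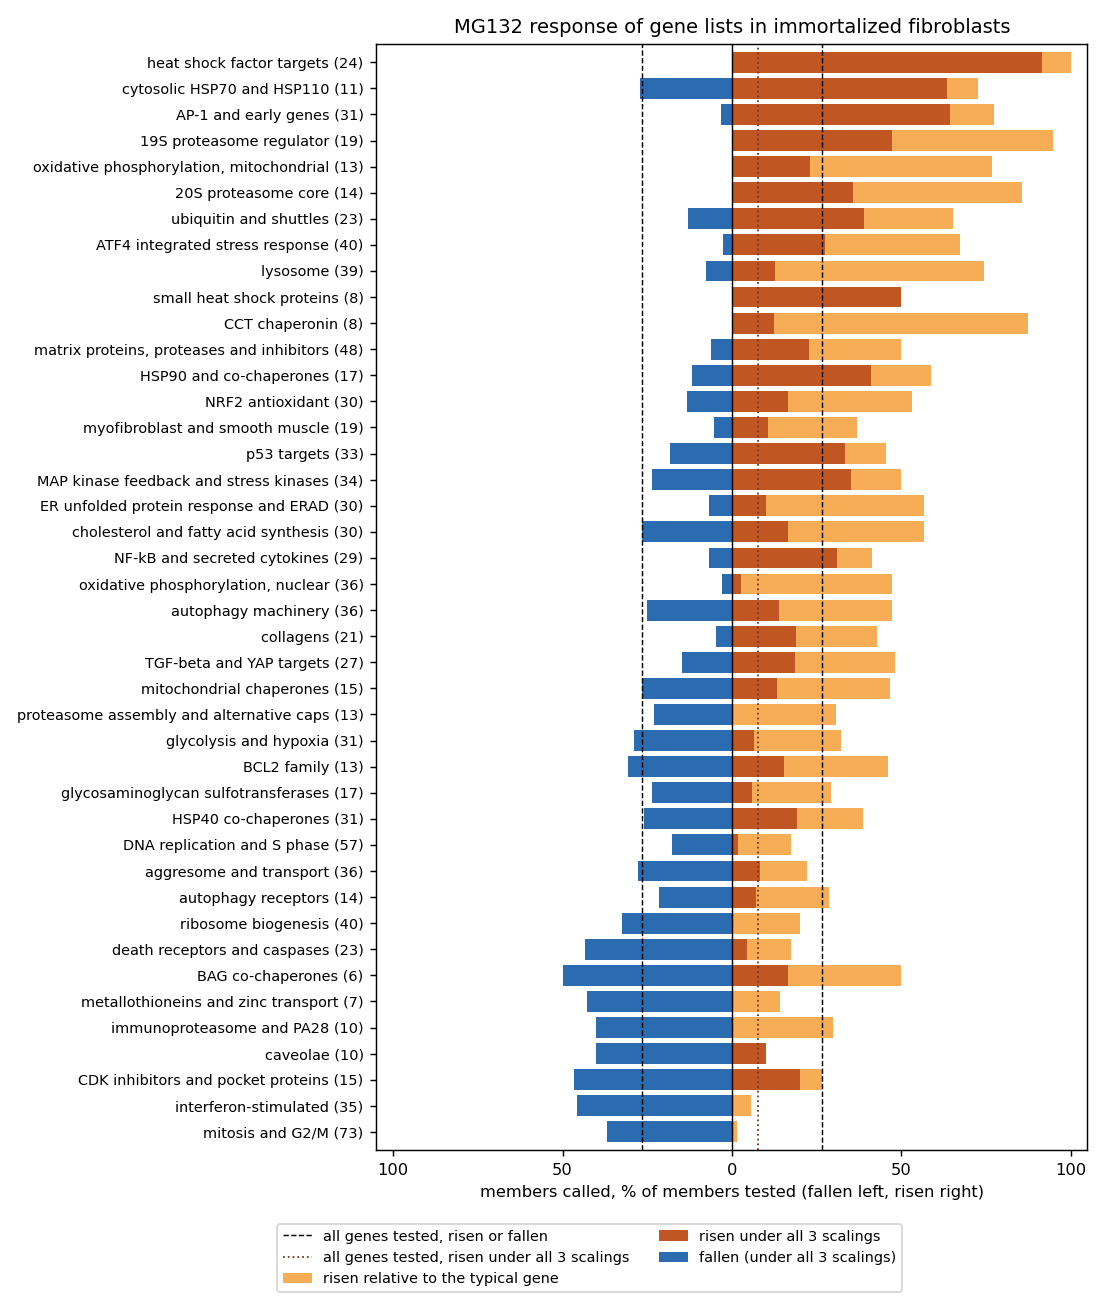
Share of the tested members of each gene group (y axis, number tested in parentheses) that rose or fell under MG132 in immortalized fibroblasts (x axis, %), with light orange for rises relative to the typical gene, dark orange for rises called under all 3 scalings and blue for falls. Dashed lines mark 26.6% of all genes tested and the dotted line marks 7.63%, and all 24 heat shock factor targets rose.

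Genes of the integrated stress response, in which phosphorylated eIF2α favours translation of the transcription factor ATF4, rose in 27 of 40 cases, 11 of them under all 3 scalings, and 1 fell. Gdf15, a secreted stress cytokine, had 5.34, 2.09 and 5.83 TPM under DMSO and 176, 86.2 and 180.3 TPM under MG132 (5.53 ± 0.50, adjusted p = 2.1e-08). Its libraries did not overlap, and replicate 2 was the lowest in both groups. Atf3, a repressor induced by ATF4, changed by 3.79 ± 0.34, from 20.6, 32.3 and 33.0 TPM to 252, 198 and 259 TPM. Ddit3, which encodes CHOP, changed by 2.52 ± 0.21, and Ppp1r15a, the phosphatase subunit that ends the response, by 2.28 ± 0.17. The single fall was Gpt2, an alanine transaminase, at -0.49, and it was not called without replicate 2 of both treatments. The C/EBP-ATF response element, searched as TGATGNAAN on both strands, occurred in 13 of 35 promoter windows of these genes (37.1%). It occurred in 2.61% of all tested genes with a window and in 3.14% of all risen genes with one. The genes were listed for being known members of the response, which favours such sites, and a match is a description of the letters.

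In the endoplasmic reticulum, the unfolded protein response raises folding enzymes and the degradation machinery. Of 30 genes of the unfolded protein response and ER degradation 17 rose, 3 of them under all 3 scalings, and 2 fell. Hspa5, the ER HSP70 known as BiP, went from 814, 833 and 999 TPM to 2903, 2310.4 and 2670.2 TPM (2.35 ± 0.16), with no overlap. Sdf2l1, a BiP cofactor, fell from 35.4 ± 7.62 TPM to 8.55 ± 3.17 TPM (-1.24 ± 0.25).

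NRF2 targets, which protect against oxidants, split. Of 30 genes 16 rose, 5 of them under all 3 scalings, and 4 fell. Hmox1, heme oxygenase 1, had 641, 358 and 976 TPM under DMSO and 7223, 3974 and 7248 TPM under MG132 (4.06 ± 0.43). Gsr, which regenerates reduced glutathione, moved the other way, from 371, 399.6 and 439 TPM to 54.7, 57.1 and 61.0 TPM (-2.02 ± 0.14, adjusted p = 7.3e-10). G6pdx, the first enzyme of the pentose phosphate pathway, went from 84.2, 66.8 and 85.5 TPM to 15.7, 15.5 and 17.8 TPM (-1.46 ± 0.10). Neither Gsr nor G6pdx had overlapping libraries. The other falls were Cat and Keap1, at -0.40 and -0.75. The antioxidant response element, searched as TGACNNNGC on both strands, occurred in 9 of 25 NRF2 target windows (36.0%). It occurred in 16.9% of all tested genes with a window and in 19.3% of all risen genes with one. The genes were listed for being known NRF2 targets, which favours such sites, and a match is a description of the letters.

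Immediate early genes, which encode the Fos and Jun proteins of AP-1 and other fast-acting factors, rose in 24 of 31 cases, 20 of them under all 3 scalings, with a median of 1.51. One fell, Srf at -0.69. The counts were again 24 and 1 without replicate 2 of both treatments. Fos had 3.27, 3.37 and 3.16 TPM under DMSO and 40.6, 33.4 and 35.5 TPM under MG132 (3.85 ± 0.14, adjusted p = 1.0e-13). Junb, a partner of Fos, went from 153, 111 and 132 TPM to 824, 807 and 744 TPM (3.36 ± 0.14). Egr1, an early zinc finger factor, went from 39.4, 78.4 and 29.2 TPM to 157, 251 and 124 TPM (2.66 ± 0.45), and its replicate 2 was the highest of both groups. For each of these genes every MG132 library was above every DMSO library.

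Several feedback inhibitors of MAP kinases rose too, and so did the kinase activator gene Gadd45b. Dusp2, a nuclear phosphatase of ERK and p38, was listed at 0.589, 0.460 and 0.348 TPM under DMSO and 16.6, 26.5 and 19.3 TPM under MG132 (4.51 ± 0.16). Gadd45b, an activator of the MTK1 kinase, went from 50.9, 55.5 and 52.8 TPM to 343, 371 and 366 TPM (3.51 ± 0.19). Dusp4 and Dusp10, phosphatases of the same family, changed by 3.48 ± 0.20 and 2.78 ± 0.15. Over 34 genes of MAP kinase feedback and stress kinases 17 rose, 12 of them under all 3 scalings, and 8 fell.

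Classical p53 targets were called in both directions. Of 33 genes 15 rose, 11 of them under all 3 scalings, and 6 fell, and without replicate 2 of both treatments the counts were 14 and 5. Cdkn1a, the cyclin-dependent kinase inhibitor p21, went from 468, 311 and 452 TPM to 1035, 989 and 1029 TPM (2.11 ± 0.14, adjusted p = 4.1e-10). Mdm2, the ubiquitin ligase for p53, went from 97.8, 91.0 and 100.4 TPM to 163, 136 and 136 TPM (1.35 ± 0.07). Pmaip1, the BH3-only death protein Noxa and also an ATF4 target, had 13.4, 9.67 and 14.0 TPM under DMSO and 289.9, 229 and 269 TPM under MG132 (5.07 ± 0.16). The libraries of Cdkn1a, Mdm2 and Pmaip1 did not overlap. Trp53, the transcript of p53, went from 186, 188 and 186 TPM to 79.2, 84.2 and 76.9 TPM (-0.44 ± 0.09). Several of the risen members, among them Gadd45a, Sesn2 and Btg2, are also induced by other stress pathways, and which pathway acted was not tested.

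Genes that execute cell death were mixed. Of 13 BCL2 family genes 6 rose (2 under all 3 scalings, Pmaip1 and Bcl2l11) and 4 fell. Bcl2l11, the BH3-only protein Bim, went from 3.27 ± 0.402 TPM to 11.1 ± 2.43 TPM (2.19 ± 0.16), and Bak1, a pore-forming effector, from 118 ± 11.2 TPM to 33.3 ± 0.737 TPM (-1.03 ± 0.09). Of 23 death receptor and caspase genes 4 rose and 10 fell, and of the rises only Tnfrsf12a, the TWEAK receptor, was called under all 3 scalings (2.18 ± 0.18). Tnfrsf1a, the main TNF receptor, fell from 946, 587 and 932 TPM to 190.3, 168 and 204 TPM (-1.33 ± 0.19).

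Many matrix genes rose. Of 48 genes for matrix proteins, proteases and inhibitors 24 rose, 11 of them under all 3 scalings, and 3 fell. Timp3 (chr10:86300372-86349506 on GRCm38), an inhibitor of metalloproteinases that binds the matrix, had 129, 112 and 152 TPM under DMSO and 2413, 1612 and 2047 TPM under MG132 (4.71 ± 0.18, adjusted p = 2.0e-13). Prg4 (chr1:150449412-150466165), which encodes the lubricating proteoglycan lubricin, had 15.5, 3.24 and 23.1 TPM under DMSO and 592, 199 and 439.9 TPM under MG132 (5.73 ± 0.66). Replicate 2 was the lowest library of both genes under both treatments, and the treatments did not overlap. Timp3, Prg4, Has2 and Cryab each overlap another gene on the opposite strand. The library kit keeps the strand, but the default kallisto settings given in the study's methods do not use it, and which of the named pipelines wrote the table is not settled, so reads of overlapping genes may not have been told apart. Thbs2, the matrix glycoprotein thrombospondin 2, changed by 2.28 ± 0.19, and the collagenase Mmp13 by 2.89 ± 0.86 from 1.73 ± 1.5 TPM. Of 21 collagen genes 9 rose, 4 of them under all 3 scalings, and Col6a1 fell by 0.70 on the log2 scale.

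Enzymes of hyaluronan, the long sugar polymer of the matrix, also changed. The synthase Has1 was listed at 0.454, 0.907 and 0.538 TPM under DMSO and 25.6, 11.2 and 21.1 TPM under MG132 (4.21 ± 0.29). Has2, the main synthase of fibroblasts, went from 20.5, 31.5 and 12.4 TPM to 36.7, 67.7 and 33.7 TPM (1.84 ± 0.51, adjusted p = 0.0045). With TPM as deposited the change of Has2 was 1.09 and was not called (adjusted p = 0.066). Cemip, which takes part in hyaluronan breakdown, went from 5.74, 2.97 and 6.14 TPM to 27.3, 13.1 and 18.8 TPM (2.51 ± 0.40). Of 29 NF-kB and cytokine genes 12 rose, 9 of them under all 3 scalings, and 2 fell. Il11, a cytokine of the interleukin 6 family, went from 7.64 ± 3.28 TPM to 61.0 ± 6.79 TPM (3.67 ± 0.29), and the chemokine Ccl2 from 20.1 ± 14.4 TPM to 111 ± 51.3 TPM (3.38 ± 0.72).

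A few genes were near silence in 1 treatment. Below 1 TPM in every DMSO library and at 5 TPM or more in every MG132 library were 15 genes. Gm45184, a long intergenic noncoding RNA (chr7:127434422-127439392), was listed at 0, 0 and 0.197 TPM under DMSO and 31.8, 108 and 37.8 TPM under MG132, and replicate 2 was the highest MG132 library. Krtap1-5, a keratin-associated protein of hair, was listed at 0.381, 0.238 and 0.180 TPM and 36.4, 40.5 and 39.4 TPM. Krtap3-2, of the same kind, was listed at 0 in all 3 DMSO libraries and at 6.19, 14.1 and 10.3 TPM under MG132. The hematopoietic growth factor gene Csf2 was listed at 0, 0 and 0.117 TPM and 6.89, 5.88 and 9.75 TPM. The opposite pattern was found in 20 genes, of which Mppe1, Zbtb14, 5730409E04Rik, S1pr2 and Tfap4 had the highest DMSO means. S1pr2, a sphingosine-1-phosphate receptor, went from 8.75, 6.62 and 7.97 TPM to 0.394, 0.394 and 0.407 TPM.

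The largest falls came from several kinds of genes, and each was larger with TPM as deposited. Gemin4, part of the complex that assembles spliceosomal particles, went from 25.5, 21.2 and 28.7 TPM to 1.33, 2.23 and 0 TPM (-3.31 ± 0.47, adjusted p = 6.8e-06). Chst12, a sulfotransferase of chondroitin and dermatan chains, went from 43.3, 35.6 and 34.0 TPM to 1.66, 1.77 and 2.36 TPM (-3.13 ± 0.19). Ppp1r3e, a regulatory subunit for glycogen, went from 20.7, 18.2 and 14.1 TPM to 0.734, 1.04 and 0.119 TPM (-3.16 ± 0.30). Cd248, the stromal cell receptor endosialin, went from 86.0, 40.6 and 61.5 TPM to 5.80, 5.90 and 4.75 TPM (-2.54 ± 0.28). In none of these did a library of one treatment reach the other. The other members of the 10 largest falls were Plk1, a mitotic kinase, at -2.81, and Dctd, Marveld1, Nynrin, Zbtb12 and Nfic, between -2.48 and -2.64. Chst14, which makes dermatan sulfate and was not among these 10, changed by -1.92 ± 0.15.

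Mitosis genes fell in 27 of 73 cases (37%, against 26.6% of all genes tested). Only Cdca5 rose relative to the typical gene, and the median was -0.93. Plk1, the kinase that drives mitotic entry, had 47.8, 193 and 32.0 TPM under DMSO and 4.05, 9.82 and 3.02 TPM under MG132 (-2.81 ± 0.65). Its DMSO replicate 2 was far above the other DMSO libraries, and the treatments did not overlap. Cdc25b, a phosphatase that activates CDK1, changed by -2.37 ± 0.43. Without replicate 2 of both treatments, 10 of the 73 mitosis genes fell, 1 rose and the median was -0.67. That is a smaller share of falls than over all 13489 genes tested, of which 3125 fell in that setting. Of 57 S phase genes 10 rose (1 under all 3 scalings) and 10 fell, 17.5% each way. Without replicate 2 of both treatments 13 rose and 6 fell. Tk1, thymidine kinase, fell by 1.91 on the log2 scale, and Mcm10 was called as risen at 1.37. The D-type cyclins Ccnd1 and Ccnd3, which activate CDK4 and CDK6, fell from 116 ± 9.99 and 125 ± 17.0 TPM to 16.8 ± 2.90 and 20.5 ± 1.88 TPM, while Cdkn2a, the p16 and p19ARF locus, rose by 1.19.

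Genes for ribosome assembly fell in 13 of 40 cases, and 8 were called as risen, though not under all 3 scalings. Polr1b, a subunit of RNA polymerase I, went from 21, 28.7 and 23.6 TPM to 3.76, 3.15 and 3.33 TPM (-1.87 ± 0.14). Rrp1b, a nucleolar processing factor, changed by -1.61 ± 0.21. Ncl, the abundant nucleolar protein nucleolin, was called as risen at 0.77, with 410.1 ± 90.9 TPM under DMSO and 402 ± 13.7 TPM under MG132, and its sign turned with TPM as deposited (-0.0045).

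Interferon-stimulated antiviral genes fell in 16 of 35 cases (45.7%, against 26.6% of all genes tested). Relative to the typical gene 2 rose, and the median was -0.78. The group took 0.198, 0.407 and 0.298% of TPM in DMSO replicates 1, 2 and 3, and 0.140, 0.124 and 0.139% in the MG132 replicates. Usp18, which removes the ubiquitin-like tag ISG15, went from 68.3, 146 and 114 TPM to 19.6, 14.8 and 18.9 TPM (-1.76 ± 0.42). Oas3 and Cmpk2 changed by -1.59 and -1.60 from means of 6.71 ± 5.86 and 6.75 ± 4.06 TPM. The 2 rises were Oasl1 and the chemokine Cxcl10, at 1.26 and 1.32. Without replicate 2 of both treatments 13 fell, 3 rose and the median was -0.40.

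Under DMSO the interferon group had its highest level in immortalized cells. It took 0.301 ± 0.104% (SD, n = 3) of TPM in immortalized cells, 0.109 ± 0.00942% in quiescent, 0.0478 ± 0.00996% in senescent and 0.0346 ± 0.0118% in proliferating cells under DMSO, and 0.134% in immortalized cells under MG132. Usp18 had 109.5 ± 39.1 TPM in immortalized, 26.5 ± 3.38 TPM in quiescent, 5.88 ± 2.13 TPM in senescent and 3.84 ± 3.32 TPM in proliferating cells under DMSO. The level after MG132 in immortalized cells, 17.8 ± 2.58 TPM, was near that of quiescent cells under MG132, 14.4 ± 6.80 TPM. The response of 22 of the 35 genes lay below that of proliferating cells by the test of the difference, where 5.46% of all genes did. It lay below that of senescent cells for 9 genes (19.6% of all genes) and above it for 1 (18.8%). Against quiescent cells 2 genes lay below and 3 above, where 15.6% of all genes did in each direction. The median response of the group was -0.73 in quiescent cells, beside -0.78 in immortalized cells.

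The response of immortalized cells was then set against that of each other cell-state by the difference of the log2 fold changes in the same model. Against proliferating cells 822 genes lay above (6.09%) and 736 below (5.46%), and the second count was 484 without proliferating DMSO replicate 1 and 1147 without proliferating DMSO replicate 3. Against senescent cells 2542 lay above (18.8%) and 2646 below (19.6%), and against quiescent cells 2100 lay above (15.6%) and 2102 below (15.6%). With TPM as deposited, the median of these differences was -0.14, -0.60 and -0.41. A difference below was therefore less readily lost on that scale than one above. The response differed from all 3 other cell-states in the same direction for 494 genes above (3.66%) and 507 below (3.76%), and for 193 and 484 of them under all 3 scalings. Without replicate 2 of the immortalized groups these counts were 480 and 387. These 3 comparisons share the 6 immortalized libraries.

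Of the 494 genes above, 407 rose in immortalized cells. Of the same 494, 284 fell and 33 rose in senescent cells, and 186 fell and 107 rose in quiescent cells. In proliferating cells 155 fell and 169 rose. Of the 507 below, 438 fell in immortalized cells. Of the same 507, 227 rose and 89 fell in senescent cells, and 202 rose and 98 fell in quiescent cells. In proliferating cells 94 rose and 179 fell. Both sets were selected by the difference of response itself, which favours opposite signs.

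Early genes were frequent among the 494. Of 31 tested, 15 lay above all 3 other cell-states, where 3.66% of all genes did. Under all 3 scalings 11 of them did, and without replicate 2 the count was 16. Those under all 3 scalings included Fos, Fosb, Junb, Egr1, Egr3, Nr4a1 and Klf6. The median response of the early genes was 1.51 in immortalized, 0.61 in proliferating, -0.28 in quiescent and -0.57 in senescent cells. The response of Fos was 3.85 in immortalized, 1.30 in proliferating, -1.57 in senescent and -2.45 in quiescent cells. The Egr1 response was 2.66 in immortalized cells and -0.11, -1.59 and -2.57 in the other 3, in the same order.

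Of the 33 p53 targets, 8 lay above all 3 other cell-states, where 3.66% of all genes did, and 7 without replicate 2. Cdkn1a, Pmaip1, Btg2, Polk and Eda2r did so under all 3 scalings, and Mdm2, Bbc3 and Plk2 did not. The response of Cdkn1a was 2.11 in immortalized, 0.72 in proliferating, -0.23 in senescent and -0.38 in quiescent cells. As levels, Cdkn1a went from 410.2 ± 86.7 to 1018 ± 25.0 TPM in immortalized cells, and had 959 ± 28.5 TPM in proliferating, 1218 ± 170.2 TPM in senescent and 1299 ± 121 TPM in quiescent cells already under DMSO. After MG132 it had 1047 ± 143, 1025 ± 57.6 and 885 ± 152 TPM in these 3 cell-states. The larger response thus began from the lowest of the 4 DMSO means, and the mean after MG132 lay within the range of the other cell-states. The DMSO libraries enter both the level and the response.

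Starting levels also differed for the matrix genes with the largest differences. Prg4 had 14.0 ± 10.0 TPM under DMSO and 410.3 ± 198 TPM under MG132 in immortalized cells, against 320.0 ± 78.3 and 639 ± 206 TPM in proliferating cells. In senescent cells it had 4068 ± 2969.6 and 4312 ± 742 TPM, and in quiescent cells 315 ± 166 and 513 ± 300 TPM. Its difference of response was 4.16 from proliferating (adjusted p = 0.0068), 5.21 from senescent and 4.89 from quiescent cells. Timp3 had 131 ± 20.2 TPM under DMSO in immortalized cells, and 933 ± 153, 1183 ± 374 and 783 ± 139 TPM in proliferating, senescent and quiescent cells. After MG132 it had 2024 ± 401 TPM in immortalized cells and 1213 ± 102, 745 ± 82.5 and 798 ± 73.2 TPM in the others. Timp3 thus went from the lowest mean of the 4 cell-states to the highest, whereas the mean of Prg4 stayed below that of proliferating cells after treatment. The MG132 libraries of Prg4 overlapped, with 592, 199 and 439.9 TPM in immortalized and 552, 873 and 490 TPM in proliferating cells.

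Has2 and Cemip had opposite signs in the cell-states. Has2 changed by 1.84 in immortalized cells and by -1.69, -4.78 and -2.68 in proliferating, senescent and quiescent cells. Its level after MG132 was 46.0 ± 18.8 TPM in immortalized cells and 8.11 ± 2.59, 3.34 ± 0.669 and 12.4 ± 4.84 TPM in the others. Cemip changed by 2.51 in immortalized cells and by -0.84, -0.81 and -0.39 in the others. Of the 48 matrix genes 8 lay above all 3 other cell-states, where 3.66% of all genes did. Under all 3 scalings 5 of them did, which were Lox, Tnc, Thbs1, Thbs2 and Timp3.

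**Figure D5:**
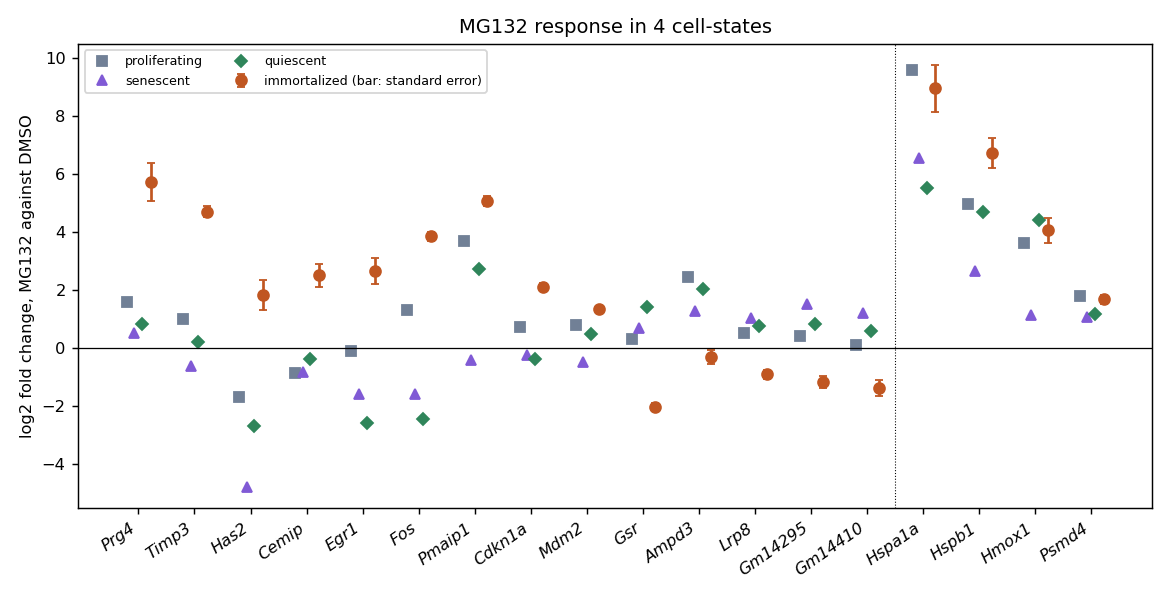
Log2 fold change of MG132 against DMSO (y axis) for 18 named genes (x axis) in proliferating, senescent, quiescent and immortalized fibroblasts, with the standard error for immortalized cells. Left of the dotted line the immortalized response differed from each of the other 3 (for Mdm2 not under every scaling), from Prg4 at 5.73 to Gsr at -2.02, and right of it are 4 genes of the heat shock, NRF2 and proteasome groups that rose in all 4 cell-states.

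Among genes whose response lay below all 3 other cell-states, Gsr had the largest difference, ranked by the smallest of its 3 differences. It changed by -2.02 in immortalized cells and by 0.31, 0.69 and 1.41 in proliferating, senescent and quiescent cells. Its DMSO level was 403 ± 34.4 TPM in immortalized cells and 128 ± 26.4, 153 ± 12.6 and 95.8 ± 7.82 TPM in the others, and after MG132 it was 57.6 ± 3.20, 104 ± 15.6, 245 ± 26.8 and 225 ± 11.2 TPM in the same order. Gsr thus went from the highest mean of the 4 cell-states to the lowest. Ampd3, an AMP deaminase, changed by -0.31 ± 0.24 and was not called in immortalized cells, while it changed by 2.45, 1.28 and 2.04 in the others. Lrp8, a receptor of reelin, changed by -0.89 in immortalized cells and by 0.53, 1.05 and 0.75 in the others. The predicted genes Gm14295 and Gm14410 changed by -1.16 and -1.37.

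Lipid synthesis, ribosome assembly, mitochondrial proteases and cargo transport also held members below all 3 other cell-states. Over all genes tested, 3.76% lay below all 3. Of 30 sterol and fatty acid genes 17 were called as risen (5 under all 3 scalings) and 8 fell (26.7%, near the 26.6% of all genes tested). In this group 5 lay below all 3, but only 2 did without replicate 2 of both immortalized groups. Among the 5 were Dhcr7, Fasn, Acaca and Elovl6. Insig1, which retains the sterol sensor in the ER, rose from 35.3, 28.8 and 55.8 TPM to 150.1, 76.5 and 125 TPM (2.29 ± 0.37), while Acaca, the first enzyme of fatty acid synthesis, changed by -0.73 ± 0.19. Of 40 ribosome assembly genes 8 lay below all 3 others and 6 did without replicate 2. Of the mitochondrial chaperone and protease genes, Afg3l2, Clpx and Grpel2 lay below under all 3 scalings. Spg7 of the same group lay above all 3 other cell-states, though not under all 3 scalings. Of the aggresome and transport genes, Hdac6, Dync1li1 and Tubb4b lay below. The change of Hdac6 was -0.43 in immortalized cells and 0.13, 0.65 and 0.06 in proliferating, senescent and quiescent cells.

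Many heat shock factor targets responded more than in senescent or quiescent cells, and no difference from proliferating cells was called. Against proliferating cells, limma called 0 of the 24 heat shock factor targets, where it called 11.6% of all genes, and at an unadjusted p under 0.05 it found 2 above and 1 below. The differences ran from -1.01 to 1.76 with a median of 0.1 and a median standard error of 0.4. That of Hspa1a was -0.64 ± 1.14, which leaves room for a difference in either direction. The response of Hspa1a was 8.96 in immortalized and 9.59 in proliferating cells, and 6.54 and 5.53 in senescent and quiescent cells. The response lay above senescent cells for 16 of the 24 (18.8% of all genes) and above quiescent cells for 13 (15.6% of all genes). As a share of TPM under MG132, the group took 11.7 ± 3.65% (SD, n = 3) in immortalized, 12.1 ± 2.02% in proliferating, 4.86 ± 0.473% in senescent and 3.75 ± 0.355% in quiescent cells.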

How the data were processed

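Stranded, paired-end poly(A) RNA libraries of tail fibroblasts were made from pellets of equal cell number with ERCC spike-in. The methods of the study name Cutadapt, kallisto with Ensembl transcripts of GRCm38.p6, RUVg of RUVseq and DESeq2, and the processing notes of the submitters list HISAT2, StringTie, edgeR, cutadapt and FastQC without versions. The sources used here do not settle which pipeline wrote the table. Its title gives TPM normalized to ERCC, and the study's methods compute TPM from counts normalized to the spike-in. The authors deposited TPM for 19880 genes, scaled to a fixed sum per library, with 0 ERCC rows. Depth is therefore unknown, and no counting interval is given. The step that 1 read is worth was read from the low values and used to undo the per-million scaling as an alternative. The number of columns of per-sample values left unmapped was 0.

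Libraries were scaled by size factors (median of ratios) over 13243 genes above 0 in all 24 libraries. log2(scaled TPM + 1) was fitted with limma 3.58.1 (R 4.3.3) with a mean-variance trend and 1 mean for each of the 8 groups (16 residual degrees of freedom), over 13489 genes with at least 1 TPM in at least 3 libraries. Adjustment of two-sided p-values followed Benjamini and Hochberg, over all genes of a comparison. Comparisons were MG132 against DMSO in immortalized cells, and the difference of that response from each of the 3 other cell-states. No set test was run, and 43 gene lists are described by counts and medians.

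The members and lists were chosen with earlier results of these data known. Named genes are the 10 largest rises and falls with non-overlapping libraries and a mean of at least 10 TPM, up to 4 called examples of each list with a mean of at least 5 TPM, the 5 largest genes switched on or off, the 5 each way that differed most from all other cell-states, and the genes of the aggresome route and p53. Some genes that the rule names are counted in their lists and not reported here. Other members named in the text were chosen after their values were seen. Positions are from GENCODE M21 (GRCm38), and 177 of 177 named genes matched by identifier. Promoters are from RefSeq, and 10435 tested genes matched by identifier or symbol. Alternatives were other scalings, pseudocounts, filters, fits, a replicate block and each library left out. The fit was tested on simulated data for the immortalized response over 13489 genes. It recovered 12 of 67 changes of 0.5, 41 of 67 of 1 and 58 of 66 of 2 on the log2 scale, and called 6 unchanged genes. Figures used matplotlib 3.10.9 in Python 3.11.15.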

Additional observations from a re-analysis of the deposited data

Results flagged for a closer look

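The 17 named genes below, and others such as Fos and Pmaip1, had a response that differed from each of the 3 other cell-states. The test was that of the difference in the same model. Of the rises in immortalized cells, Prg4 changed by 5.73, Krtap1-5 by 5.61, Timp3 by 4.71, Egr1 by 2.66, Cemip by 2.51, Cdkn1a by 2.11, Has2 by 1.84 and Mdm2 by 1.35. Of the falls, Dctd changed by -2.64, Nfic by -2.48, Gsr by -2.02, Gm14410 by -1.37, Gm14295 by -1.16, Lrp8 by -0.89 and Hdac6 by -0.43. Ampd3 at -0.31 and Map2k6 at 0.10 were not called in immortalized cells themselves. For Krtap1-5 the responses of proliferating, senescent and quiescent cells were 3.85, -0.42 and 0.87, for Dctd -1.63, -1.89 and -0.68, and for Nfic -1.52, -0.40 and -1.07. Of the 17, all but Mdm2 and Map2k6 differed from each of the 3 under all 3 scalings. Groups of 3 libraries are too small for a test of single outlying libraries.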

How the results depend on the processing

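The scale and array weights changed the counts. With TPM as deposited, 1031 genes rose and 7626 fell, the response lay below proliferating cells for 1336, above and below senescent cells for 1047 and 6580 and quiescent cells for 896 and 5148, and apart from all 3 for 207 above and 1157 below. With the per-million step undone the counts were 1147 risen and 7058 fallen, 520 above proliferating, 1231 and 5455 above and below senescent, 814 and 4978 above and below quiescent, and 213 apart above. Under TPM as deposited the changes reversed to Pomp -0.0123, Psme2 -0.2166, Ncl -0.0045, Vim -0.2303, Map3k7 -0.4787, Map2k6 -0.3839 and Mapk13 -0.2002, and with the step undone to Psme2 -0.1245, Vim -0.1362, Map3k7 -0.3907, Map2k6 -0.3476 and Mapk13 -0.1135. With array weights, whose fit stopped before it converged, 2432 and 2255 genes lay above and below proliferating, 4008 above senescent, 3489 above quiescent and 1354 and 1364 apart above and below. The cause of these shifts was not tested. Replicate numbers were not taken to pair the immortalized samples, since 1 of the 3 same-number correlations of deviations (-0.14, 0.402 and 0.385) was below 0.1. Those of different numbers ran from -0.539 to 0.264. With the replicate number as a block, 527 and 390 genes lay above and below proliferating, and 253 were apart below. Leaving out 1 library gave 3174 (without MG132 replicate 3) to 3475 (without DMSO replicate 2) risen and 3138 to 3430 fallen. The ranges were 585 to 1138 above and 484 to 1147 below proliferating, 2216 to 2589 and 2325 to 2633 for senescent, 1745 to 2063 and 1804 to 2015 for quiescent, and 373 to 627 and 349 to 688 apart above and below. Without replicate 2 of both immortalized groups, no count over all genes tested moved by over 1.5 times, while falls went from 27 to 10 for mitosis, 10 to 6 for S phase, 4 to 2 for the BCL2 family and the immunoproteasome and 3 to 1 for matrix genes, and immunoproteasome rises from 3 to 0. Of 3008 comparisons over 177 named genes, 2916 kept direction and call, 78 lost the call, 2 gained it and 12 changed sign.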

Other observations

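Genes of oxidative phosphorylation were called mainly as risen relative to the typical gene, and glycolysis and hypoxia genes in both directions. Of 36 nuclear genes of oxidative phosphorylation 17 rose, 1 of them under all 3 scalings, and 1 fell. Of 13 mitochondrially encoded subunits of oxidative phosphorylation 10 rose, 3 of them under all 3 scalings, led by mt-Cytb, a subunit of complex III, with 3925, 3305 and 3329.7 TPM under DMSO and 6225, 7631 and 5438 TPM under MG132 (1.63 ± 0.26). Of 31 glycolysis and hypoxia genes 10 rose, 2 of them under all 3 scalings, and 9 fell. These shares, 32.3 and 29%, were near the 26.6% of all genes tested in each direction. Without replicate 2 of both treatments 9 rose and 10 fell. Adm, which encodes the vasodilator adrenomedullin, went from 152, 113 and 215 TPM to 773, 481 and 798 TPM (2.88 ± 0.34). Egln1, the oxygen-sensing prolyl hydroxylase, went from 37.8, 51.3 and 43.8 TPM to 6.42, 4.89 and 5.83 TPM (-2.06 ± 0.15). For both genes the libraries of the treatments did not overlap. Pfkl, a rate-setting glycolytic enzyme, and Slc2a1, the glucose transporter GLUT1, changed by -1.71 ± 0.17 and -1.15 ± 0.10.

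Of 27 TGF-beta and YAP target genes 13 rose (5 under all 3 scalings) and 4 fell. Ccn2, a matricellular factor that both pathways induce, went from 1988, 3802 and 1433 TPM to 7658, 13151 and 6928 TPM (2.78 ± 0.44), while Tgfbr2, the TGF-beta receptor subunit that binds the ligand, changed by -0.86 ± 0.15. Ccn1, Tgfb1, Skil and Amotl2 had responses above all 3 other cell-states relative to the typical gene, though not under all 3 scalings. Of 10 genes of caveolae, the small pits of the cell membrane, 1 rose, also under all 3 scalings, and 4 fell. Ehd2, the ATPase at the caveolar neck, went from 118, 142 and 99 TPM to 23.6, 27.6 and 20.5 TPM (-1.52 ± 0.19), and Cav1, the main coat protein, from 233 ± 25.6 TPM to 98.2 ± 12.8 TPM (-0.47 ± 0.19).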
